A study of Mus musculus with 4 samples.

Results

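The AP-1 and immediate early genes are a set of 32 mouse genes, taken by gene name from the deposited count table: FOS, JUN, ATF, BATF and small MAF factors, EGR, NR4A and KLF factors, IER genes, MAP kinase phosphatases, Sprouty inhibitors, and the mRNA decay and antiproliferative genes Zfp36, Zfp36l1 and Btg1. All 32 names were found among the 51509 genes listed. Of them, 31 had at least 1 count and 27 passed the filter on low counts, among 14684 genes tested. RNA was sequenced from intestinal organoids, epithelial cultures grown from the intestine, of wild type C57BL/6 mice with an age of 8 to 12 weeks. Every culture had received 8 Gy of irradiation and was harvested 36 hours later, and no unirradiated group was analysed here. The groups were vehicle (2 libraries) and SGC-CBP30 (2 libraries), a small molecule that binds the bromodomains of the acetyltransferases CBP and p300. The treatment label of SGC-CBP30 replicate 2 reads SGC-CBP31. Its title and the group size given for the study put that library with SGC-CBP30. Values without it are given for the members whose call changed when it was left out. Nothing in the labels says whether replicates came from separate cultures or animals, so the p-values rest on a spread between libraries that may be technical.

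Immediate early genes are switched on within minutes of a growth factor, stress or damage signal, from factors already present in the cell. ERK, JNK and p38 kinases phosphorylate SRF partners, CREB and JUN at their promoters, and CBP and p300 are coactivators recruited there. FOS and JUN proteins pair into AP-1, which binds DNA and regulates proliferation, migration and stress genes, in gut epithelium also during repair. Several members close the loop again: DUSP phosphatases and Sprouty proteins damp MAP kinase signalling, and ZFP36 proteins shorten the life of early transcripts.

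With SGC-CBP30, 10 of the 27 tested members rose and 3 fell, while 14 did not pass the threshold of 0.05 on the p-value of edgeR's quasi-likelihood test, adjusted over all genes tested by Benjamini and Hochberg. Of all genes tested 30.0% were called, 13.6% higher and 16.3% lower. When 50 counts in 2 libraries were required, which all 27 members met, 36.4% of 11436 genes were called. On the scale of CPM (counts scaled to library size, with edgeR's TMM factors), on which all overlaps were judged, the vehicle and SGC-CBP30 libraries did not overlap in 19 of the 27 members (14 higher, 5 lower), against 63.1% of all genes (32.1% higher, 31.0% lower). The median log2 fold change of the tested members was 0.11, against 0.0096 for all genes, and their median absolute value was 0.23, against 0.25. The largest rises were in Egr1, at 3.09-fold, and Spry4, at 2.65-fold. Fos and Jun rose by less, 1.48-fold and 1.49-fold, and Btg1 and Ier5 were 1.37-fold and 1.32-fold lower. Those 6 members were called under every one of 10 alternative settings. The other 7 called members (Atf3, Klf3, Klf4, Klf6, Ier3, Dusp1 and Zfp36) were each lost under 3 to 6 of them. In DESeq2 and without vehicle replicate 1 the count was 6, 4 higher and 2 lower. The authors' deposited table has the same 6 under an adjusted p of 0.05, with log2 fold changes from -0.46 for Btg1 to 1.63 for Egr1. That table rests on the same libraries, so the match is not separate support. In these bulk libraries, fewer cells of a type and less RNA per cell cannot be told apart.

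**Figure D1:**
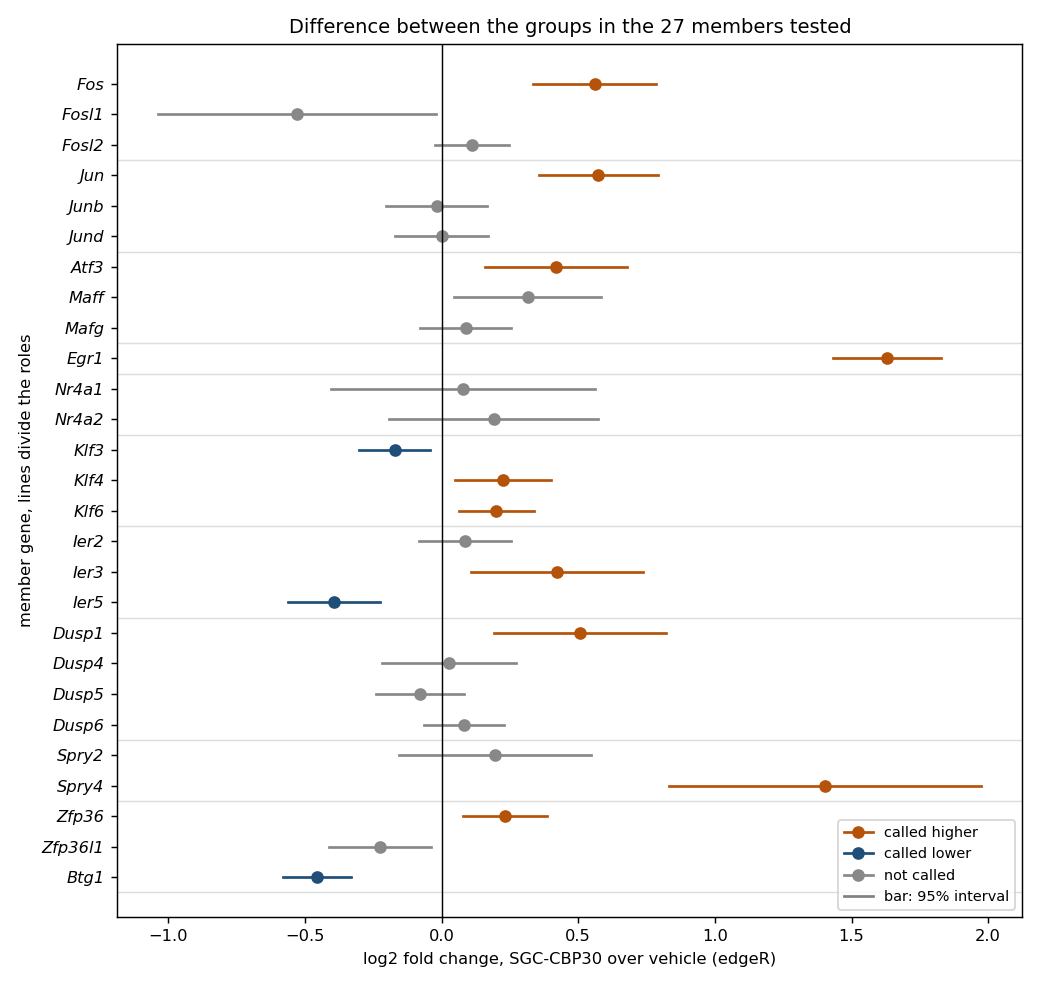
Log2 fold change, SGC-CBP30 against vehicle, of the 27 members tested, in order of role, with the edgeR estimate as a point and its 95% interval as a bar. Egr1 (1.63) and Spry4 (1.40) stand to the right of all other members, and Btg1 (-0.46), Ier5 (-0.40) and Klf3 (-0.17) are the 3 called lower.

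The promoters of 4 of the 10 members that rose (Fos, Jun, Atf3 and Dusp1) are shown, picked from a larger set. Those of the 2 lower members called under every setting (Ier5 and Btg1) are shown beside them. The 4 were chosen because CREB-type sites recruit CBP in textbook accounts of these genes, and each holds a match marked below. Atf3 and Dusp1 were not called under every setting, so higher and lower members were picked by different rules. The promoters shown are thus examples, not a comparison of the 2 directions. They are the 250 bases before the RefSeq start site on GRCm38.p6, 5′ to 3′, at chr12:85473640-85473889 (plus strand), chr4:95052223-95052472 (minus), chr1:191183334-191183583 (minus, inside the longer span listed for Atf3), chr17:26508473-26508722 (minus), chr10:96616751-96617000 (plus) and chr1:155099637-155099886 (minus). Capitals mark matches, on either strand, to TGACGTCA (the full CRE), to its core TGACGT, and to TGACATCA (the JUN and ATF2 site known from the Jun promoter).
Fos: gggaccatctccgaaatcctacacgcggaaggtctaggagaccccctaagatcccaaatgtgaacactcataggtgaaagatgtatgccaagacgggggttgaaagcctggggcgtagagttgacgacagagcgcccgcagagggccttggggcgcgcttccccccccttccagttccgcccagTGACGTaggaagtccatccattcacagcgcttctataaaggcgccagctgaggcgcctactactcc
Jun: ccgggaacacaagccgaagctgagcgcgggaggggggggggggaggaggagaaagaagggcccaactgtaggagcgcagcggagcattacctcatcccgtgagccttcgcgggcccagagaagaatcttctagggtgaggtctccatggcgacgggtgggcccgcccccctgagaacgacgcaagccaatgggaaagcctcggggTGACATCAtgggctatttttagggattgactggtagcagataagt
Atf3: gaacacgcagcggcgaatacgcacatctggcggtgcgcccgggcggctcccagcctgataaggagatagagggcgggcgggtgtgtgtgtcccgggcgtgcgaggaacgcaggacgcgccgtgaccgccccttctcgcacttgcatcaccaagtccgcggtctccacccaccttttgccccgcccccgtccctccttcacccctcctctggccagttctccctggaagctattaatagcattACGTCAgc
Dusp1: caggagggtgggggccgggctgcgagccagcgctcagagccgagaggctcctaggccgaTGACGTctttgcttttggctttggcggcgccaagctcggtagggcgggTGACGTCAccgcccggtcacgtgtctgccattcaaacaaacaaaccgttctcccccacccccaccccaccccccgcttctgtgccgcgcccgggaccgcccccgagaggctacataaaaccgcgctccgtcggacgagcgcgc
Btg1: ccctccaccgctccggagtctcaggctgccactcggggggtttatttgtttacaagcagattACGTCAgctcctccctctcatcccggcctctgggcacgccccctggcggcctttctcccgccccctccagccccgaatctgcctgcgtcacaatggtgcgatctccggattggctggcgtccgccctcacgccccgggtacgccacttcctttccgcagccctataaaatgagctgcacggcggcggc
Ier5: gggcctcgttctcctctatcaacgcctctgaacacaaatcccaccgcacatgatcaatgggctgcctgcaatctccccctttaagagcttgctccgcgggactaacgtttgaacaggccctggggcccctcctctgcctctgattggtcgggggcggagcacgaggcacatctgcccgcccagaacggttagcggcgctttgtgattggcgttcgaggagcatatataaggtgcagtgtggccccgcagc
The core lay 66 to 61 bases before the start of Fos, 8 to 3 bases before that of Atf3 and 188 to 183 bases before that of Btg1, whose transcript was lower. Dusp1 held the full CRE 143 to 136 bases before its start, which contains the core on both strands, and a further core match 191 to 186 bases before it. The Jun match lay 45 to 38 bases before its start. The Ier5 window held no match to any of these, nor to the AP-1 site TGANTCA, the EGR site GCGNGGGCG or the CArG box of SRF.

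Promoter windows were listed for 26 of the 32 members, without Egr1, Egr3, Ier2, Fosl1, Dusp4 and Spry4, and shares are per gene over 27025 genes with a window of the same length. The TGACGT core was found in 8 of the 26 (Atf3, Btg1, Dusp1, Dusp5, Egr2, Fos, Maff and Mafg), or 30.8%, against 7.29% of all genes. The full CRE, which includes the core, was in 2 of them (Dusp1 and Maff), against 1.77%. An EGR site was in 9 members, or 34.6%, against 5.33%. Of these, Klf4 and Zfp36 rose and Klf3 fell, Fosl2, Maff, Nr4a1 and Nr4a2 were not called, and Fosb and Klf2 were not tested. The fixed letters of this site are all G or C, and the genes compared were not matched for base composition. A CArG box was in Dusp5, Egr2 and Zfp36, against 1.62% of all genes, TGACATCA in Jun, Klf6 and Maff, against 3.41%, and TGANTCA in Zfp36l1 alone, against 7.82%. Members with a core match were called higher (Fos, Atf3, Dusp1), lower (Btg1) or not called (Dusp5, Maff, Mafg), or were not tested (Egr2). Among called-higher members whose windows are not printed above, Klf6 held TGACATCA but no core, and Klf4, Ier3 and Zfp36 held neither. TGACGT and TGACATCA were added to the search after the promoters had been seen, and a match is a description of letters, not of a bound site. Sites farther than 250 bases before the start were not searched for any motif, CArG boxes included.

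The libraries held 16433117 to 18087250 counts. The members took 0.171% and 0.176% of the counts in the vehicle libraries and 0.188% and 0.182% in the SGC-CBP30 libraries, replicate 1 first. Of all genes tested, 2004 were higher and 2397 lower, and 2907 higher and 1924 lower with library totals as the scale. The summed level of 8 epithelial markers was 7196 and 7213 CPM with vehicle and 9044 and 8406 CPM with SGC-CBP30. Of the 8, the keratin genes Krt8, Krt18 and Krt19 rose, Cdx1 and Cdx2 fell, and Epcam, Cdh1 and Vil1 were not called. The sum of 9 enterocyte markers was 35058 and 35329 CPM against 27370 and 25334 CPM, with 5 of the 9 called lower and 1 higher. Markers of crypt base stem cells summed to 681 and 653 CPM against 505 and 569 CPM. Of those 5 markers Olfm4 (191.6 to 55.5 CPM as group means) and Ascl2 fell, Lgr5 rose by 0.56 on the log2 scale (edgeR adjusted p = 6.46e-05), and Smoc2 and Slc12a2 were not called. Paneth cell markers summed to 4277 and 4185 CPM against 3719 and 3380 CPM, with 2 of 6 called lower. Goblet markers summed to 4477 to 4771 CPM over all libraries, with 1 of 7 called higher and 2 lower. Enteroendocrine markers summed to 580 to 676 CPM, with Neurog3 called higher and Gcg and Tac1 lower. Tuft markers summed to 32.2 and 34.9 CPM with vehicle against 25.4 and 26.1 CPM, with Trpm5 alone called, lower. The part of all these cell types in the values of the members was not tested. The 7 fibroblast markers summed to 10.2 to 17.2 CPM. Vim, the only one tested, made up 9.11 to 16.6 CPM of that and fell, Lum had 0 counts in every library, and Col3a1 had 1 and 1 counts with vehicle and 16 and 7 with SGC-CBP30. Leukocyte, endothelial and smooth muscle markers summed to at most 5.83, 1.94 and 0.235 CPM.

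Among the FOS subunits, which form AP-1 only with a partner, Fos alone was called. Fos (ENSMUSG00000021250, GRCm38 chromosome 12, 85473890 to 85477273, plus strand) had 394 and 412 counts with vehicle and 587 and 639 with SGC-CBP30. Both SGC-CBP30 libraries lay above both vehicle libraries. The level went from 24.1 ± 2.48 to 35.5 ± 1.34 CPM (SD, n = 2), a log2 fold change of 0.56 ± 0.11 (SE; edgeR adjusted p = 3.1e-04). Fosl1, which encodes FRA1, a FOS protein linked to migration and wound repair, had 115 and 88 counts against 86 and 58. The groups did not overlap, but the log2 fold change of -0.53 ± 0.25 (95% interval -1.04 to -0.020) did not pass the threshold (edgeR adjusted p = 0.112). SGC-CBP30 replicate 2 was the lowest library: without SGC-CBP30 replicate 1, Fosl1 was called lower at -0.87 (edgeR adjusted p = 0.0226). Fosl1 shares exon sequence with Ccdc85b on the opposite strand, and strand use in the counting is not given, so its counts are uncertain. Fosl2, which encodes FRA2 and had the highest level per length of the FOS genes in the vehicle libraries, had 2217 and 2043 counts against 2335 and 2396. Its groups did not overlap, by a narrow gap, with a log2 fold change of 0.11 ± 0.07 with a 95% interval of -0.026 to 0.25 that was not called (edgeR adjusted p = 0.229), except when scaled by library totals (0.18, adjusted p = 0.0345). Fosb, an inducible FOS gene, had 4 and 10 counts against 9 and 3, too few to be tested.

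Of the JUN subunits, which can pair with each other or with FOS, only Jun rose. Jun (ENSMUSG00000052684, chromosome 4, 95049034 to 95052222, minus strand), a gene of a single exon, had 436 and 465 counts with vehicle and 694 and 688 with SGC-CBP30. The groups were well apart, at 26.9 ± 3.15 and 40.0 ± 1.14 CPM (SD, n = 2), a log2 fold change of 0.57 ± 0.11 (SE; edgeR adjusted p = 1.6e-04). Its antisense partner Junos had 5 to 17 counts per library. Junb, whose protein often restrains JUN, had 1508 and 1328 counts against 1583 and 1292, and Jund, the JUN gene that is expressed most constantly, had 1135 and 986 against 1142 and 1036. In CPM, SGC-CBP30 replicate 1 was the highest library and replicate 2 the lowest in both genes (67.1 and 59.0 CPM against 64.3 and 61.8 CPM for Jund), so the groups overlapped. The log2 fold change of Junb was -0.018, with a 95% interval of -0.20 to 0.17. That of Jund was 2.8e-05, with an interval of -0.17 to 0.17, so a change as large as that of Jun lies outside both intervals. Without SGC-CBP30 replicate 1, Junb was called lower (-0.20, edgeR adjusted p = 0.0360), and without replicate 2 it had 0.14 and was not called. Junb shares exon sequence with Prdx2 on the opposite strand, which makes its counts uncertain.

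Among the other bZIP members, Atf3 rose. Atf3, a stress-induced repressor and activator that binds CREB-type sites, had 279 and 280 counts with vehicle and 355 and 415 with SGC-CBP30, or 16.7 ± 1.24 and 22.3 ± 1.96 CPM (SD, n = 2). The groups did not overlap and the log2 fold change was 0.42 ± 0.13 (edgeR adjusted p = 0.0138). Atf3 was no longer called without vehicle replicate 1 (0.34, adjusted p = 0.131), without SGC-CBP30 replicate 2 (0.33, adjusted p = 0.0992) and in DESeq2 (adjusted p = 0.106). Maff, a small MAF protein with no activation domain of its own, had 280 and 256 counts against 363 and 322. Its groups did not overlap, but its log2 fold change of 0.31 ± 0.13 was not called (edgeR adjusted p = 0.0706), except when scaled by library totals (0.39, adjusted p = 0.0238) or when SGC-CBP30 replicate 2 was left out (0.42, adjusted p = 0.0254). Mafg, a small MAF partner of NRF2, had 1290 and 1133 counts against 1398 and 1246 and a log2 fold change of 0.088 ± 0.081, with overlapping groups. It was called without SGC-CBP30 replicate 2 (0.19, edgeR adjusted p = 0.0446) and had -0.025 without replicate 1. It shares exon sequence with Sirt7 on the same strand. Batf3, a partner of JUN known from dendritic cells, had 0 counts in all 4 libraries, which allows at most 0.170 to 0.188 CPM per library at 3 counts.

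Egr1 changed most of all members. EGR proteins are zinc finger factors that carry growth factor signals to later genes. Egr1 (ENSMUSG00000038418, chromosome 18, 34859823 to 34864984, plus strand) had 391 and 379 counts with vehicle and 1130 and 1325 with SGC-CBP30. The vehicle libraries were nearly equal, at 22.1 and 23.8 CPM, and both SGC-CBP30 libraries were far above them, at 66.4 and 75.5 CPM. The log2 fold change was 1.63 ± 0.10 (SE; edgeR adjusted p = 1.3e-12), and its absolute size was larger than that of 97.2% of all genes tested. Without any 1 library it stayed between 1.53 and 1.72. Egr2 and Egr3, which share the DNA-binding domain of EGR1, had only 3 to 8 counts in any library and were not tested. Of the EGR corepressor genes, Nab1 rose by 0.71 ± 0.09 on the log2 scale, while Nab2, named after its values were seen, fell by 0.55 ± 0.14.

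**Figure D2:**
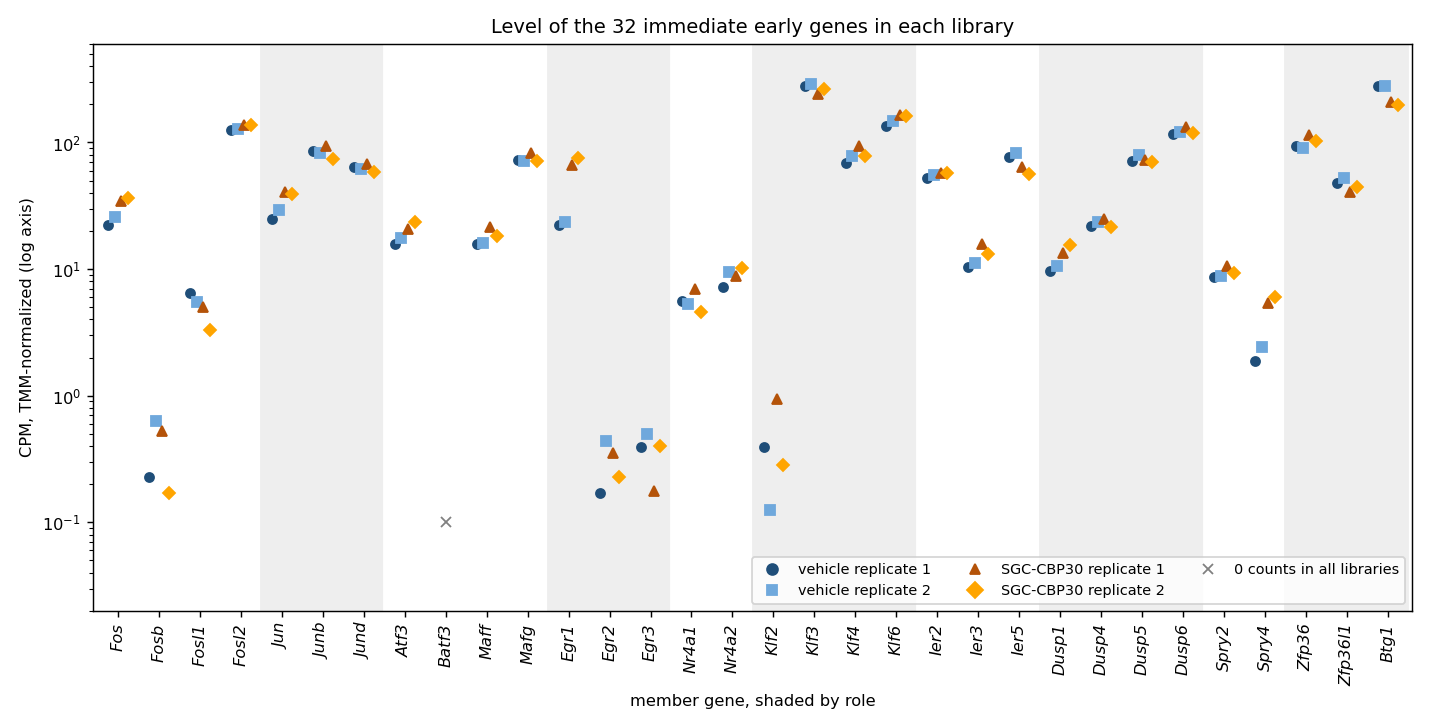
Level of each of the 32 members in each of the 4 libraries, in CPM on a log axis, with 1 symbol per library and shading to divide the roles. Egr1 and Spry4 show the widest gap between vehicle and SGC-CBP30 symbols, 5 members had fewer than 25 counts in every library, and the cross for Batf3, at 0 counts, is drawn at an arbitrary height.

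The NR4A genes, orphan nuclear receptors induced by cAMP and growth signals, were not called. Nr4a1 had 99 and 84 counts with vehicle and 118 and 80 with SGC-CBP30. The SGC-CBP30 libraries lay on both sides of the vehicle libraries, and the log2 fold change was 0.077 ± 0.234, with a 95% interval of -0.41 to 0.56. Without SGC-CBP30 replicate 1 it was -0.26 and not called. Nr4a2 had 127 and 152 counts against 149 and 180, a log2 fold change of 0.19 ± 0.19 (interval -0.19 to 0.57) and overlapping groups. At these counts a change of the size seen in Fos (0.56) lay inside the interval of Nr4a2 and at the upper end of that of Nr4a1.

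KLF factors are zinc finger proteins that in gut epithelium govern the exit from proliferation (Klf4) and progenitor growth. Klf4 had 1218 and 1242 counts with vehicle and 1582 and 1379 with SGC-CBP30. Klf6, an injury-induced factor, had 2400 and 2363 counts against 2793 and 2846. Klf3, a repressor of the family, had 4943 and 4620 counts against 4081 and 4659. In Klf4 and Klf3 SGC-CBP30 replicate 2 lay nearer to the vehicle libraries than replicate 1, with log2 ratios to the vehicle mean of 0.34 and 0.098 for Klf4 and -0.25 and -0.10 for Klf3, replicate 1 first. Klf4 rose from 73.4 ± 6.27 to 85.8 ± 10.2 CPM (SD, n = 2), and Klf6 from 142 ± 8.62 to 163 ± 1.47 CPM. Klf3 fell from 285 ± 6.81 to 253 ± 18.0 CPM. In none of the 3 did the treatments overlap. For Klf4 the gap was narrow, with vehicle replicate 2 at 77.8 CPM and SGC-CBP30 replicate 2 at 78.5 CPM. The changes of the 3 were small, with log2 fold changes of 0.23 ± 0.09, 0.20 ± 0.07 and -0.17 ± 0.06 (edgeR adjusted p = 0.0492, 0.0251 and 0.0415). All 3 calls were lost without vehicle replicate 1, where the values were 0.14, 0.14 and -0.20, and in DESeq2. Without vehicle replicate 2 the calls of Klf6 (0.27, adjusted p = 0.0804) and Klf3 (-0.14, adjusted p = 0.396) were lost too. Without SGC-CBP30 replicate 1 Klf4 had 0.096 and Klf3 -0.11, neither called, and with library totals as the scale Klf3 had -0.099. Klf2, known from endothelium and lymphocytes, had 7 and 2 counts with vehicle and 16 and 5 with SGC-CBP30 and was not tested.

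Among the 3 IER genes, which are short early response genes, Ier3 rose and Ier5 fell. Ier5, which encodes a regulator of the heat shock factor HSF1, had 1347 and 1311 counts with vehicle and 1091 and 989 with SGC-CBP30. It fell from 79.2 ± 4.16 to 60.2 ± 5.52 CPM (SD, n = 2), a log2 fold change of -0.40 ± 0.08 (SE; edgeR adjusted p = 6.0e-04), with non-overlapping groups. Ier5 (ENSMUSG00000056708, chromosome 1, 155096361 to 155099636, minus strand) also has a single exon. Ier3, a survival gene of stressed cells, rose, with 183 and 179 counts against 269 and 230 and a log2 fold change of 0.42 ± 0.15 (edgeR adjusted p = 0.0378). Ier3 was no longer called without vehicle replicate 1 (0.36, adjusted p = 0.182), vehicle replicate 2 (0.48, adjusted p = 0.0616) or SGC-CBP30 replicate 1 (0.28, adjusted p = 0.296) and in DESeq2. Ier2, a nuclear protein gene co-induced with Fos in many cells, had 928 and 890 counts against 983 and 1001 and was not called (0.084 ± 0.081, interval -0.084 to 0.25).

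Heat shock genes, which tissue handling and stress can raise together with immediate early genes, also differed between the groups. Of 14 tested, 6 rose, 2 fell and 6 were not called, with a median log2 fold change of 0.10. Over all genes tested, 13.6% were called higher and 16.3% lower. Hspa1b rose by 0.72 ± 0.14 and Hspa4l by 0.51 ± 0.09. Hspa1a, a near-identical copy of Hspa1b whose counts are therefore uncertain, had 21 and 6 counts with vehicle and 51 and 60 with SGC-CBP30. The count of 6 became 3 without vehicle replicate 2 and 4 in DESeq2, and the 2 lower calls became 0 without vehicle replicate 1. The part of heat shock or handling in the values of the members was not tested.

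The MAP kinase phosphatase genes include feedback inhibitors that ERK itself induces. Dusp1, a nuclear phosphatase for p38 and JNK and a classical immediate early gene, had 170 and 170 counts with vehicle and 228 and 270 with SGC-CBP30, with non-overlapping groups. It rose from 10.1 ± 0.727 to 14.4 ± 1.40 CPM (SD, n = 2), a log2 fold change of 0.51 ± 0.15 (SE; edgeR adjusted p = 0.0131). Dusp1 was no longer called without vehicle replicate 1 (0.43, adjusted p = 0.102), without SGC-CBP30 replicate 2 (0.40, adjusted p = 0.0999) and in DESeq2 (adjusted p = 0.114). The ERK phosphatase genes were not called. Dusp6, the cytoplasmic one, had 2070 and 1932 counts against 2265 and 2094 and a log2 fold change of 0.083 ± 0.071, and was called without SGC-CBP30 replicate 2 only (0.16, edgeR adjusted p = 0.0488). Dusp5 (-0.078 ± 0.078) and Dusp4 (0.027 ± 0.119), both nuclear, had 95% intervals of -0.24 to 0.083 and -0.22 to 0.27. Groups overlapped in all 3 of these genes.

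Of the Sprouty inhibitors of receptor tyrosine kinase signalling, Spry4 rose. Spry4 (ENSMUSG00000024427, chromosome 18, 38586268 to 38601268, minus strand) had 33 and 39 counts with vehicle and 92 and 105 with SGC-CBP30. It was a rare transcript in both groups, at 2.16 ± 0.407 and 5.69 ± 0.405 CPM (SD, n = 2), and its groups were well apart. The log2 fold change was 1.40 ± 0.28 (SE; edgeR adjusted p = 3.6e-04), with a 95% interval of 0.83 to 1.98 that reflects the low counts. Without any 1 library it lay between 1.22 and 1.61. Spry2, the more abundant of the pair, had 154 and 140 counts against 181 and 165 and was not called (0.20 ± 0.17, interval -0.16 to 0.55), although the groups did not overlap.

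The last members act on mRNA or growth. Btg1, an antiproliferative gene whose protein helps deadenylate mRNA, was the member with the highest level per length in the vehicle libraries, and had the lowest adjusted p of the 3 members that fell. Btg1 (ENSMUSG00000036478, chromosome 10, 96617006 to 96622809, plus strand) had 4960 and 4477 counts with vehicle and 3578 and 3492 with SGC-CBP30. After scaling, the vehicle libraries were nearly equal, at 280.9 and 280.6 CPM, and the SGC-CBP30 libraries were lower, at 210.3 and 199 CPM. The log2 fold change was -0.46 ± 0.06 (SE; edgeR adjusted p = 2.3e-06). Zfp36, which encodes tristetraprolin, a decay factor for cytokine and early transcripts, had 1663 and 1447 counts against 1953 and 1793 and rose by 0.23 ± 0.07 on the log2 scale (edgeR adjusted p = 0.0211). Zfp36 was no longer called without vehicle replicate 1 (adjusted p = 0.107), vehicle replicate 2 (adjusted p = 0.223) or SGC-CBP30 replicate 1 (0.14, adjusted p = 0.138) and in DESeq2 (adjusted p = 0.0815). Its relative Zfp36l1 had 853 and 832 counts against 697 and 788, with lower, non-overlapping SGC-CBP30 values, and was not called (-0.23 ± 0.09, edgeR adjusted p = 0.0609), except without SGC-CBP30 replicate 2 (-0.29, adjusted p = 0.0124), with the replicate number as a block, and with a filter of 50 counts in 2 libraries.

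On the deposited FPKM scale, which divides by gene length, the members covered a wide range of levels. In vehicle libraries Btg1 was highest at 52.9 ± 0.153 FPKM. Dusp6 (37.8 ± 1.00), Jund (37.6 ± 0.908), Junb (36.4 ± 0.530) and Ier2 (35.4 ± 1.62) followed, with overlapping ranges of mean ± SD. Both vehicle values of Junb lay below those of Dusp6 and Jund. Fos and Jun were lower, at 10.2 ± 1.09 and 8.40 ± 1.01 FPKM, and Egr1 was at 5.09 ± 0.271 FPKM (SD, n = 2). With SGC-CBP30, Dusp6 (40.1 ± 3.14 FPKM) and Btg1 (38.6 ± 1.55 FPKM) were highest, but did not differ beyond their spread from each other or from Jund (37.6 ± 3.45 FPKM). Fos was then at 15.0 ± 0.556 FPKM, Fosl2 at 14.1 ± 0.0658, Egr1 at 15.7 ± 1.41 and Jun at 12.5 ± 0.362. Junb and Jund were thus above Fos, Jun and Fosl2 in level per length in both groups. Klf2, Egr3, Egr2 and Fosb were all at or below 0.330 FPKM as group means, and Batf3 was at 0.

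The SGC-CBP30 libraries were also set apart, each against the mean of the vehicle libraries. Both lay above that mean in 16 of the 27 tested members, both below it in 6, and on opposite sides in 5 (Junb, Jund, Mafg, Nr4a1 and Dusp4). The log2 ratios were 1.53 in replicate 1 and 1.72 in replicate 2 for Egr1, 1.33 and 1.47 for Spry4, 0.52 and 0.60 for Fos, and 0.60 and 0.54 for Jun. They were -0.30 and -0.49 for Ier5 and -0.42 and -0.50 for Btg1. The library labelled SGC-CBP31, replicate 2, had a value on the same side as replicate 1 for all 13 called members. The calls were made with both libraries, so this shared side is no separate support for the placement of that library. Replicate 2 had the larger value in size for Egr1, Spry4, Fos, Atf3, Dusp1, Ier5 and Btg1. In 19 of the 27 members replicate 2 was below replicate 1. The vehicle libraries differed as well, with replicate 2 above replicate 1 in 20 of 27 members. These counts of sides and of replicate order were not made for all genes tested, so nothing particular to the members is read from them. The median absolute log2 difference between replicates over these members was 0.10 for vehicle and 0.18 for SGC-CBP30, against 0.12 and 0.15 over all genes tested.

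**Figure D3:**
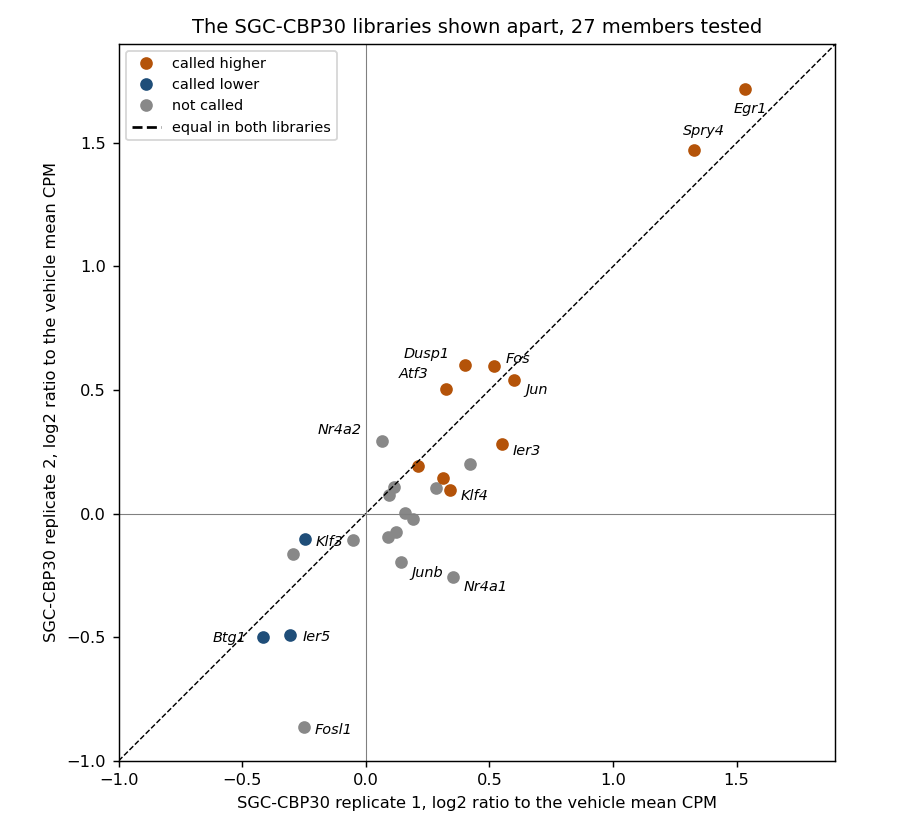
Log2 ratio of SGC-CBP30 replicate 1 (x axis) and of SGC-CBP30 replicate 2, whose label reads SGC-CBP31 (y axis), to the mean CPM of the vehicle libraries, for the 27 members tested. Egr1 and Spry4 lie far up near the line of equal values, Btg1 and Ier5 low, and Nr4a1 (0.35 and -0.25) and Fosl1 (-0.25 and -0.86) farthest from the line.

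The genes around the members in the pathway were described by lists of genes with known roles in it. Over all genes tested, 13.6% were called higher and 16.3% lower, and no list was tested as a set. In the cascade from the EGF receptor to ERK, 10 of 25 tested genes rose, 3 fell and 12 were not called, with a median log2 fold change of 0.17 against 0.0096 for all genes. The receptor gene Egfr rose by 0.44 ± 0.08 in log2 (SE), the RAS activator gene Sos2 rose by 0.34 ± 0.08, and the ligand gene Ereg fell by 0.84 ± 0.12. The count of 10 became 4 without vehicle replicate 1 and 6 in DESeq2, and the 3 lower calls became 1 without vehicle replicate 2. Among 14 genes of the JNK and p38 cascades 2 rose and 1 fell. Mapk11, which encodes the p38 beta kinase, rose from 2.49 ± 0.473 to 8.88 ± 2.41 CPM (SD, n = 2). Map3k5 (0.36 ± 0.13) was called higher and the JNK1 gene Mapk8 (-0.25 ± 0.07) lower, and without vehicle replicate 1 or 2 neither call held. With library totals as the scale, 5 genes of these cascades were called higher and 0 lower.

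Other feedback inhibitors were mixed, with 5 of 14 tested phosphatase, Sprouty and Spred genes higher, 1 lower and 8 not called. For this list and those that follow, the share over all genes was 13.6% higher and 16.3% lower. Dusp3 rose by 0.64 ± 0.14 in log2 (SE) and Spred1, which blocks RAF activation, by 0.56 ± 0.12, while Dusp16, a JNK phosphatase gene, fell by 0.37 ± 0.08. The count of 5 became 3 without vehicle replicate 1. Of 8 genes of SRF, its MRTF coactivators and the ternary complex and ETS factors, 4 rose and 0 fell, with Mkl1 at 0.31 ± 0.10, Etv5 at 0.50 ± 0.17 and Elk3, at 18 and 8 counts against 53 and 42, at 1.83 ± 0.43. The count of 4 became 1 in DESeq2 and without vehicle replicate 1, and 2 without SGC-CBP30 replicate 2. Cytoskeletal targets of SRF rose in 7 of 10 tested genes and fell in 1, among them Flna (0.87 ± 0.10) and Tpm4 (0.49 ± 0.07), with Fhl2 lower (-0.71 ± 0.09). The count of 7 became 3 without vehicle replicate 1. Of 13 CREB, CRTC and acetyltransferase genes, Creb3 (0.27 ± 0.08) and Ep300 (0.24 ± 0.07) rose and 11 were not called, and neither call held without vehicle replicate 1 or 2. The count was 4 without SGC-CBP30 replicate 1 and 6 on the scale of library totals.

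Relatives of the members were mixed. The share called was 35.3% for bZIP genes, 50% for other early genes, 30.8% for KLF and SP factors and 61.1% for AP-1 targets. Over all genes tested it was 30.0%. Of 17 tested AP-1 and bZIP genes outside the members 1 rose and 5 fell, with a median of -0.059, and 3 were called higher with library totals. Maf fell by 0.71 ± 0.08 in log2 (SE) and Nfe2l2, which encodes NRF2, a partner of small MAF proteins, by 0.70 ± 0.06. Among 30 other immediate early and early response genes 6 rose, 9 fell and 15 were not called, with a median of 0.0068. Plaur, the urokinase receptor gene, rose by 1.17 ± 0.12, whereas the kinase gene Sgk1 fell from 277 ± 11.4 to 94.95 ± 1.22 CPM (SD, n = 2), a log2 fold change of -1.55 ± 0.07. The count of 9 became 5 without vehicle replicate 1. Of 13 other KLF and SP factors Klf10, a TGF-beta-induced early gene, rose (0.57 ± 0.10) and 3 fell, among them Klf15, at 63 and 64 counts against 15 and 17 (-2.02 ± 0.36), and Klf7 (-0.73 ± 0.13). Of 18 tested genes known as AP-1 targets 7 rose, 4 fell and 7 were not called, with a median of 0.10. Sprr1a rose by 1.597 ± 0.088, Plaur as above and the keratin gene Krt7 by 0.83 ± 0.07.

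**Figure D4:**
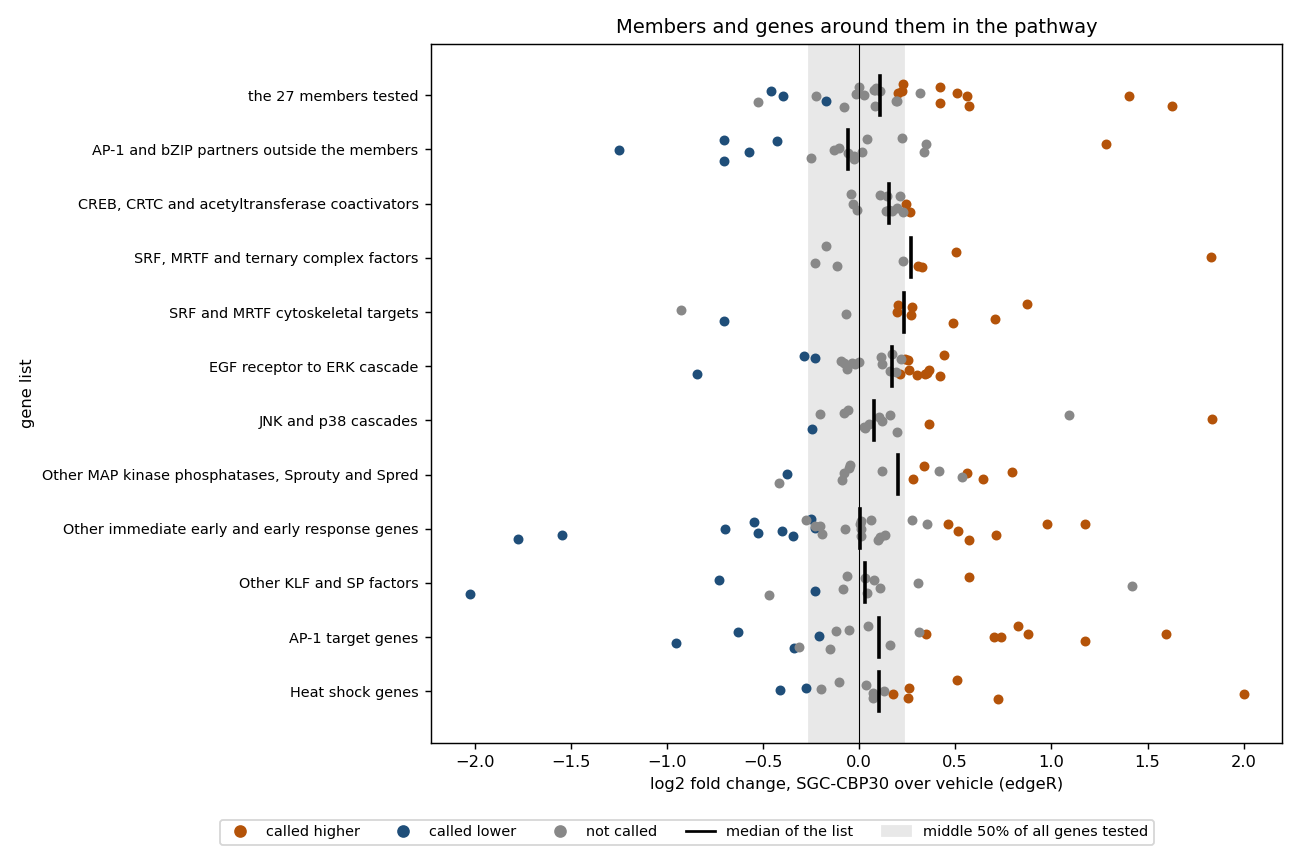
Log2 fold change, SGC-CBP30 against vehicle, of the 27 members tested and for each list of pathway genes, 1 point per gene, coloured by call, with the list's median as a black line and the middle 50% of all genes tested (-0.26 to 0.23) in grey. Every list has genes on both sides of 0, and the medians lie between -0.059 and 0.27.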

How the data were processed

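Of gene counts, FPKM and the authors' comparison, all from 1 deposited table, only counts entered tests. Per the file headers, the authors deposited whole-number counts per gene, not normalized. The authors' deposited FPKM could be recomputed from count, gene length and a library size that was 0.974 to 1.03 times the total count. The deposited gene length and group means (a signal in normalized counts, by the authors) were not tested. The authors' deposited log2 fold change and p-value columns name no test. The submitters' processing notes name featureCounts 1.5.0-p3, HISAT2 2.0.5 and StringTie 1.3.3b, with no roles, and the build mm9, but 98.5% of 51477 shared gene identifiers had the coordinates of GENCODE M21 (GRCm38), so coordinates are given as GRCm38. The table stops within its last line, after 51509 genes, of which 25365 had no count.

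Members were matched by gene name. Counts were tested with edgeR 4.0.16 in R 4.3.3: filterByExpr, TMM, robust quasi-likelihood F test, 2 libraries per group, no covariate, Benjamini-Hochberg adjustment over 14684 genes. SE is the log2 fold change over the square root of F, and 95% intervals use its degrees of freedom. CPM are TMM-scaled. Alternatives were other scalings, filters, DESeq2 1.42.0, a replicate block and leaving out each library. The test was checked on simulated counts. Replicates differed by more than counting noise (chi-square per degree of freedom 2.97 for vehicle and 6.22 for SGC-CBP30). Counting floors of 3 counts cover counting error only. The members and lists were chosen with earlier results of these data known. Counts of every library are printed for called members and AP-1 members; in each list the up to 3 called genes of smallest p are named, except 1 that is not reported here. Promoters are from RefSeq (GRCm38.p6).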

Additional observations from a re-analysis of the deposited data

How the results depend on the processing

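Of the 13 calls among the members, those of Egr1, Spry4, Fos, Jun, Btg1 and Ier5 held in all 10 alternatives. The count of called members was 6 in DESeq2 (4 higher), and leaving out each library gave 6 to 15 (4 to 11 higher, 2 to 4 lower). Over all genes DESeq2 called 2722 (1070 higher) against 4401, and leaving out each library gave 2899 to 4557 (1235 to 2104 higher, 1664 to 2453 lower). For the list genes, counted once each, the 77 calls became 46 to 84 (28 to 50 higher, 18 to 34 lower). The values that changed sign were all of members not called with all 4 libraries: Junb had 0.055 with library totals, and Jund -0.0036 with DESeq2 size factors, -0.015 when 50 counts in 2 libraries were required and -0.0010 with the replicate block. Leaving out each library, log2 fold changes ran from -0.20 to 0.14 for Junb, -0.099 to 0.091 for Jund, -0.025 to 0.19 for Mafg, -0.26 to 0.35 for Nr4a1, -0.0021 to 0.41 for Nr4a2, -0.077 to 0.12 for Dusp4 and -0.0017 to 0.16 for Dusp6. The cause was not tested. Library totals moved the median of all genes from 0.0096 to 0.083. Whether replicate numbers pair the libraries is not given in the labels. The correlation of replicate differences across genes was -0.024, which cannot exclude a pairing of small effect. With the replicate block, 14 members were called (10 higher, 4 lower) and 4703 genes in all, and all 13 calls were kept. The 5 members with fewer than 25 counts in every library were not tested, so depth limits what can be said of them.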
